A study of Mus musculus with 4 samples.

Results

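The classical histone deacetylases are zinc-dependent enzymes that remove acetyl groups from lysines of histones and other proteins. They were taken by symbol as Hdac1 to Hdac10, which are 10 of the 32285 genes counted, and all 10 were in the feature list of every library. Class I holds 4 of them (Hdac1, Hdac2, Hdac3 and Hdac8), class IIa holds another 4 (Hdac4, Hdac5, Hdac7 and Hdac9) and class IIb holds 2 (Hdac6 and Hdac10). The cells came from spleens of gBT-I.CD45.1 transgenic mice, whose CD8+ T cells carry a T cell receptor for the herpes simplex virus peptide gB498-505. Splenocytes were activated with B6 splenocytes loaded with that peptide in the presence of LPS and were kept in recombinant human IL-2, which both groups received. Cultures were given 0.5 mM sodium butyrate or PBS from day 3 to day 5, and sorted viable CD8+Vα2+ cells were sequenced on day 6 with 10x 3' chemistry. Each group held 2 libraries, all from batch 1, numbered 1 and 2, and each number stands for 1 mouse that gave a butyrate and a PBS culture.

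Class I deacetylases act mostly in the nucleus, where Hdac1 and Hdac2 sit in the NuRD, CoREST and SIN3 repressor complexes and Hdac3 sits in the NCoR complex. Class IIa proteins have little deacetylase activity of their own, bind MEF2 transcription factors, and leave the nucleus when kinases phosphorylate them and 14-3-3 proteins bind the phosphorylated sites. Class IIb enzymes act mainly in the cytoplasm. Butyrate inhibits class I enzymes, while Hdac6 and Hdac10 are described as resistant to it. The counts below are of transcripts and carry no measure of enzyme activity.

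Library totals lay between 64388093 and 76522004 UMIs (unique molecular identifiers, which count captured RNA molecules), and 2059 to 2664 cells per library were kept, with median depths of 24816 and 23627.5 UMIs in butyrate cells and 21793 and 20494 UMIs in PBS cells. CD8 T cell markers summed to 11264 and 11893 CPM (UMI counts scaled to the library total, adjusted by TMM) in butyrate libraries and 8590 and 8778 CPM in PBS libraries, and all 9 were detected. Trbc2 carried most of each sum, with 507142 of 724928 and 524982 of 761475 UMIs under butyrate and 272870 of 467852 and 345353 of 590074 UMIs under PBS. Of the 9 genes, 3 were called higher and 2 lower under butyrate (median log2 fold change 0.03), against 36% and 35.7% of all genes tested. Of 4 NK cell markers, Klrb1c and Tyrobp carried nearly all of a sum of 48.0 and 57.5 CPM in butyrate libraries, against 8.39 and 9.95 CPM in PBS libraries, while Ncr1 had 0 UMIs in both butyrate libraries. The 9 myeloid markers summed to 13.8 and 15.4 CPM under butyrate and 2.04 and 2.44 CPM under PBS. C1qa, C1qb and Adgre1 were at 0 UMIs in every library. Cd68 carried most of the myeloid sum, with 606 of 890 and 660 of 987 UMIs under butyrate. Under PBS it had 93 of 111 and 139 of 164 UMIs. Itgam had 242 and 274 UMIs under butyrate and 8 and 21 UMIs under PBS. The 8 dendritic cell markers summed to 39.0 and 44.8 CPM under butyrate and 32.7 and 27.1 CPM under PBS. The 6 B cell markers summed to 8.47 and 9.54 CPM under butyrate and 6.39 and 6.03 CPM under PBS. H2-Ab1 carried most of each dendritic cell sum and Cd79b most of each B cell sum. Pax5, Siglech and Cd209a were at 0 UMIs throughout. The 2 CD4 T cell markers summed to 0.590 and 0.718 CPM under butyrate and 0.0734 and 0.0595 CPM under PBS, mostly from Cd4, which had 33 and 40 UMIs in butyrate libraries against 3 and 1 UMIs in PBS libraries. The 6 erythroid and platelet markers summed to 0.963 and 0.734 CPM under butyrate and 0.165 and 0.312 CPM under PBS, with Pf4 and Ppbp at 0 UMIs throughout. The part of these sums in the results below was not tested. Pairs of libraries shared 1 to 6 kept cell barcodes.

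The promoter sequences of the 3 tested class IIa genes are shown because these genes fell together under butyrate, and those of Hdac9 are not printed. The windows are the 250 bases before the first listed start site of each gene, from RefSeq on GRCm38.p6, written 5' to 3' on the gene's strand, and 7 of the 10 genes matched an entry in that table. They lie at chr1:92180342-92180591 (minus strand) for Hdac4, chr11:102230173-102230422 (minus strand) for Hdac5 and chr15:97831496-97831745 (minus strand) for Hdac7. Capitals mark 3 motifs searched on both strands, so that a motif on the other strand appears as its reverse complement, namely the GC box GGGCGG, the CCAAT box and the MEF2 site, which do not overlap here.
Hdac4: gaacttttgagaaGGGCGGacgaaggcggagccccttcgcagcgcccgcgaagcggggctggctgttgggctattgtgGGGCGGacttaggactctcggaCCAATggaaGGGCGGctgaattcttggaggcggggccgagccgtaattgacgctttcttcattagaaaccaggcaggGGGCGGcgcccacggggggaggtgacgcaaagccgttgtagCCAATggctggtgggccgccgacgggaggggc
Hdac5: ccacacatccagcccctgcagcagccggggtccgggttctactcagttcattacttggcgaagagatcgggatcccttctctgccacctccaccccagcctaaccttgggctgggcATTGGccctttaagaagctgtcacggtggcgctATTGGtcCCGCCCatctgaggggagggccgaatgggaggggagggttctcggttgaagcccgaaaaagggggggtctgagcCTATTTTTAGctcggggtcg
Hdac7: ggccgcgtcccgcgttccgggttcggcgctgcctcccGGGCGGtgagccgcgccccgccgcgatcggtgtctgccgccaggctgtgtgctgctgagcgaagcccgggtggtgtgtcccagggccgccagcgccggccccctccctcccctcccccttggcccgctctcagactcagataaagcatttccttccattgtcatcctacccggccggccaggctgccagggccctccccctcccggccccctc
Hdac4 held 4 GC boxes and 2 CCAAT boxes, Hdac5 held 1 GC box, 2 CCAAT boxes and 1 MEF2 motif, and Hdac7 held 1 GC box. Hdac7 has further listed starts, numbered 2 to 4, whose windows are not printed and held 0 GC boxes. Among all 32851 promoter windows of that length, 32.7% held a GC box, 33.9% a CCAAT box and 0.508% a MEF2 motif. The windows of Hdac4, Hdac5 and Hdac7 held 23, 12 and 25 CpG dinucleotides, against a median of 6 over all windows. At starts 2 to 4 of Hdac7 the numbers were 6, 21 and 5. Such numbers were not particular to these genes, since the window of Hdac2 held 27 CpG dinucleotides and that of Hdac6 held 17. The Hdac6 window also held 4 GC boxes and 2 CCAAT boxes. Hdac8 had 6 CpG dinucleotides, and the listed starts of Hdac9 had 0 and 2. A TATA box (TATAAA), an E-box (CACGTG) and an E2F site (GGCGGGAA), which 12.4%, 6.02% and 1.86% of all windows held, were not among the letters of the 3 printed windows. These matches describe sequence and were not tested for binding.

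The make-up of the family differed between butyrate and PBS libraries. Hdac1 took a larger share of the family's UMIs and the class IIa genes a smaller one in butyrate libraries, and this measure does not depend on how libraries are scaled. Hdac1 held 49.6% and 48.9% of family UMIs in butyrate libraries, against 28.2% and 28.4% in PBS libraries. Hdac7 held 15.9% and 16.3% under butyrate and 29.1% and 26.6% under PBS. Class I together held 74.5% and 74.0% in butyrate libraries and 54.3% and 56.4% in PBS libraries, while class IIa held 23.3% and 23.8% in butyrate libraries and 42.0% and 39.9% in PBS libraries. Class IIb held 2.19% and 2.18% under butyrate and 3.65% and 3.73% under PBS. In each of these shares the gap between the groups was larger than that between the 2 libraries of a group, but with 2 libraries a side the exact two-sided permutation p was 0.333, the smallest it can be. The gain of class I was that of Hdac1 (21.0 points, mean of butyrate minus mean of PBS libraries). Hdac3 gained 1.54 points, while Hdac2 (-3.11) and Hdac8 (-0.49) lost share. Shares of 1 total are tied, so a larger Hdac1 share lowers those of the other genes. The family totals behind these shares were 24072 and 24598 UMIs under butyrate and 18415 and 22449 UMIs under PBS. Reads at the 3' end were counted, so these counts were not divided by gene length, and they compare a gene with itself across cultures.

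Across all kept cells, 9 of the 10 genes had enough UMIs to test, and Hdac9 did not. Hdac1 and Hdac3 rose and the other 7 (Hdac2, Hdac8, Hdac4, Hdac5, Hdac7, Hdac6 and Hdac10) fell. The background was high, since 71.8% of the 13487 genes tested were called, 36% higher and 35.7% lower, at an adjusted p under 0.05 (edgeR quasi-likelihood test, Benjamini-Hochberg over all genes). In the 9 tested genes the butyrate and PBS libraries did not overlap, which was also true of 85.9% of all genes. The members' median log2 fold change (butyrate over PBS) was -0.49, against -0.01 over all genes, and their median absolute change was 0.51 against 0.41. Scaling by library totals alone moved the median of all genes by -0.20 to -0.21 and the calls to 25.2% higher and 49.8% lower, and it left 2 members called higher and 7 lower, against 74.9% of all genes called either way. With the replicate as a block the members' calls were the same, against 73.3% of all genes called.

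**Figure D1:**
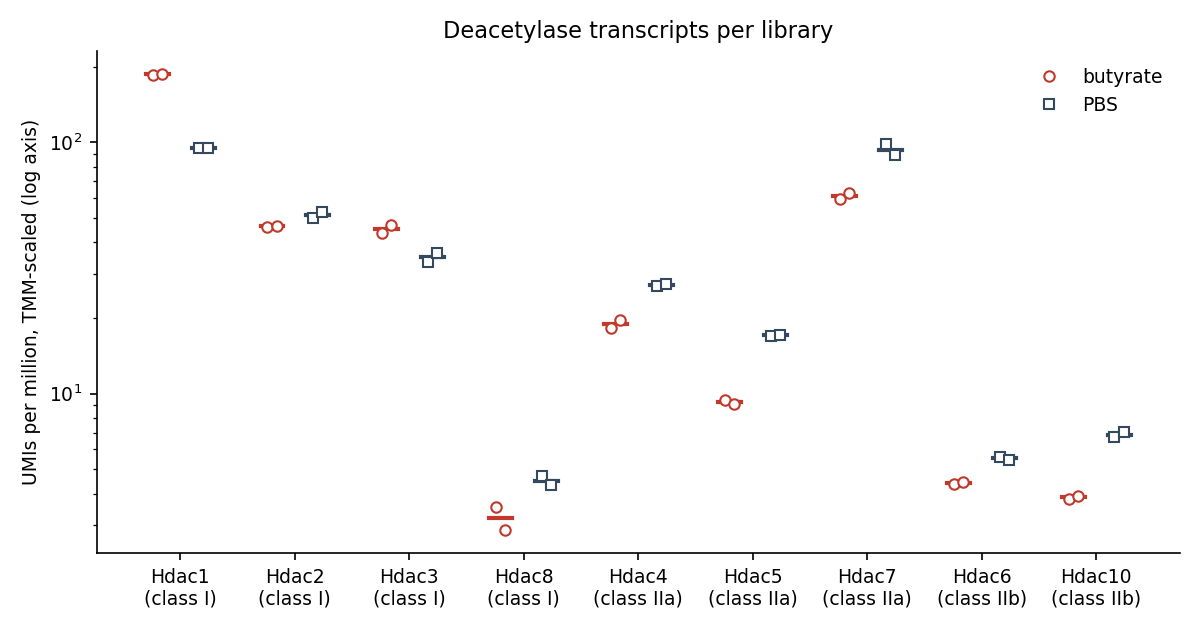
Levels in CPM (log axis) of the 9 tested deacetylase genes in each library, with butyrate libraries as red circles left of PBS libraries as dark squares and bars at the group means. Hdac1 and Hdac3 lie higher in both butyrate libraries, and the other 7 genes lie lower.

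Hdac1 (ENSMUSG00000028800, GRCm38 chromosome 4, 129516104 to 129542713, minus strand), the catalytic subunit shared with Hdac2 by the NuRD, CoREST and SIN3 complexes, had 186 and 188 CPM in butyrate libraries and 95.2 and 94.8 CPM in PBS libraries. Both butyrate libraries were above both PBS libraries, and the libraries of a group lay close together. This was a 1.97-fold level (95% interval 1.85 to 2.09), or 0.98 on the log2 scale (SE 0.04, edgeR adjusted p = 2.96e-11). By absolute change it stood within the top 19.6% of genes tested. With library totals alone the log2 fold change was 0.78, and with every cell thinned to 8000 UMIs and totals alone it was 0.72.

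Hdac2 (ENSMUSG00000019777, chromosome 10, 36974544 to 37001889, plus strand), the close relative of Hdac1 in the same complexes, had 46.2 and 46.5 CPM under butyrate against 50.3 and 52.8 CPM under PBS. The groups did not overlap, but the gap was small (-0.15 on the log2 scale, SE 0.05, edgeR adjusted p = 0.00852). Scaled by totals alone, the log2 fold change was -0.35 (edgeR adjusted p = 5.15e-06), and with thinned cells and totals alone it was -0.28. It did not pass in DESeq2 (-0.15, adjusted p = 0.0565), without PBS replicate 2 (-0.12, edgeR adjusted p = 0.0646) or with cells thinned to 8000 UMIs and TMM scaling (-0.09, edgeR adjusted p = 0.228).

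Hdac3 (ENSMUSG00000024454, chromosome 18, 37935844 to 37955016, minus strand), the catalytic subunit of the NCoR complex, had 43.4 and 47.0 CPM in butyrate libraries and 33.5 and 36.3 CPM in PBS libraries. Its level was higher in both butyrate libraries (0.37 on the log2 scale, SE 0.06, edgeR adjusted p = 2.39e-05). Library totals alone gave 0.17 (edgeR adjusted p = 0.0121).

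Hdac8 (ENSMUSG00000067567, chromosome X, 102284639 to 102505359, minus strand), which deacetylates the cohesin subunit SMC3, was scarce. It had 3.54 and 2.86 CPM under butyrate, from 228 and 183 UMIs, and 4.68 and 4.31 CPM under PBS, from 255 and 290 UMIs. Its log2 fold change was -0.49 (SE 0.12, edgeR adjusted p = 0.00193), and it was -0.89 with every cell thinned to 8000 UMIs and totals alone. It was -0.33 with a mitochondrial limit of 5% (edgeR adjusted p = 0.0466) and -0.34 without butyrate replicate 2. In DESeq2 it was -0.49 (adjusted p = 0.0368). An antisense transcript, Gm14858, overlaps the 3' end of the gene on the other strand.

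In class IIa all 3 tested members fell, and each was lower in both butyrate libraries than in either PBS library. Hdac4 (ENSMUSG00000026313, chromosome 1, 91928779 to 92195699, minus strand) had 18.2 and 19.7 CPM under butyrate and 26.8 and 27.3 CPM under PBS (log2 fold change -0.51, SE 0.06, edgeR adjusted p = 8.17e-07). Hdac5 (ENSMUSG00000008855, chromosome 11, 102194432 to 102230166, minus strand) had 9.42 and 9.11 CPM under butyrate and 17.0 and 17.2 CPM under PBS (log2 fold change -0.88, SE 0.06, edgeR adjusted p = 7.34e-09). Hdac7 (ENSMUSG00000022475, chromosome 15, 97792664 to 97844502, minus strand), known in thymocytes and cytotoxic T cells for repressing genes until kinases export it, had 59.4 and 62.7 CPM in butyrate libraries and 98.3 and 88.8 CPM in PBS libraries (log2 fold change -0.62, SE 0.05, edgeR adjusted p = 1.4e-07). In PBS libraries the levels of Hdac7 and Hdac1 overlapped, whereas in butyrate libraries those of Hdac7 lay below those of Hdac1, both in CPM from 3' ends. The last 29 bases of Hdac7 overlap Slc48a1 on the opposite strand.

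Hdac9 (ENSMUSG00000004698, chromosome 12, 34047580 to 34917095, minus strand), the remaining class IIa gene, had 0 and 1 UMIs in the butyrate libraries and 0 and 2 UMIs in the PBS libraries. These counts were too few to test and gave no fold change.

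Both class IIb genes were scarce and lower under butyrate. Hdac6 (ENSMUSG00000031161, chromosome X, 7930120 to 7947889, minus strand), the tubulin deacetylase, had 4.38 and 4.45 CPM in butyrate libraries and 5.62 and 5.43 CPM in PBS libraries (log2 fold change -0.32, SE 0.09, edgeR adjusted p = 0.00598). Library totals alone gave -0.52. It did not pass in DESeq2 (adjusted p = 0.117) or with cells thinned to 8000 UMIs (edgeR adjusted p = 0.141). Hdac10 (ENSMUSG00000062906, chromosome 15, 89123307 to 89128700, minus strand), a polyamine deacetylase, had 3.81 and 3.92 CPM under butyrate and 6.72 and 7.02 CPM under PBS (log2 fold change -0.83, SE 0.09, edgeR adjusted p = 9.02e-07). With every cell thinned to 8000 UMIs and totals alone the log2 fold change of Hdac10 was -1.32.

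Hdac11, the single class IV gene and the other zinc-dependent deacetylase, was nearly silent, with 40 and 31 UMIs in butyrate libraries against 11 and 9 UMIs in PBS libraries. Its log2 fold change was 1.74 (SE 0.34, edgeR adjusted p = 0.000325), which missed the threshold with thinned cells and totals alone (1.12, edgeR adjusted p = 0.0555). Among the sirtuins, the NAD-dependent deacetylases, Sirt1 had 8.51 ± 0.145 CPM under butyrate and 18.1 ± 0.56 CPM under PBS (SD, n = 2), a log2 fold change of -1.09. Of the mitochondrial sirtuins, Sirt4 (0.91) and Sirt5 (0.53) rose and Sirt3 fell (-0.29, edgeR adjusted p = 7.1e-05), and the cytoplasmic Sirt2 (0.58) rose. Sirt3 is not among the genes chosen by rule and was added after its values were seen. Of these 8 other deacetylases 6 rose and 2 fell, and with totals alone 4 rose and 2 fell. The shares of all genes were 36% higher and 35.7% lower, and 25.2% and 49.8% with totals alone.

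The same shift was seen cell by cell, where each cell was thinned at random to 8000 UMIs so that depth was equal. These are cells of the summed counts, so their shares restate those counts per cell and are no separate evidence. Hdac1 was found in 69.7% and 71.0% of butyrate cells (95% exact binomial intervals 67.9 to 71.5 and 69.2 to 72.8) and in 52.7% and 54.9% of PBS cells (50.4 to 54.9 and 52.9 to 56.8). Cells with 4 or more Hdac1 UMIs made up 5.55% and 5.93% of butyrate libraries and 1.11% and 1.07% of PBS libraries. Hdac7 was found in 37.1% and 38.3% of butyrate cells (35.2 to 39.0 and 36.4 to 40.2) and in 56.9% and 53.8% of PBS cells (54.7 to 59.1 and 51.8 to 55.7). In both genes the groups did not overlap, and the exact two-sided permutation p over the 4 libraries was 0.333, the smallest possible. How often the groups overlap in the cell shares of other genes was not counted. Without thinning, Hdac1 was found in 91.6% and 91.5% of butyrate cells and 80.5% and 79.9% of PBS cells, and Hdac7 in 70.1% and 71.6% of butyrate cells and 85.1% and 82.8% of PBS cells.

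**Figure D2:**
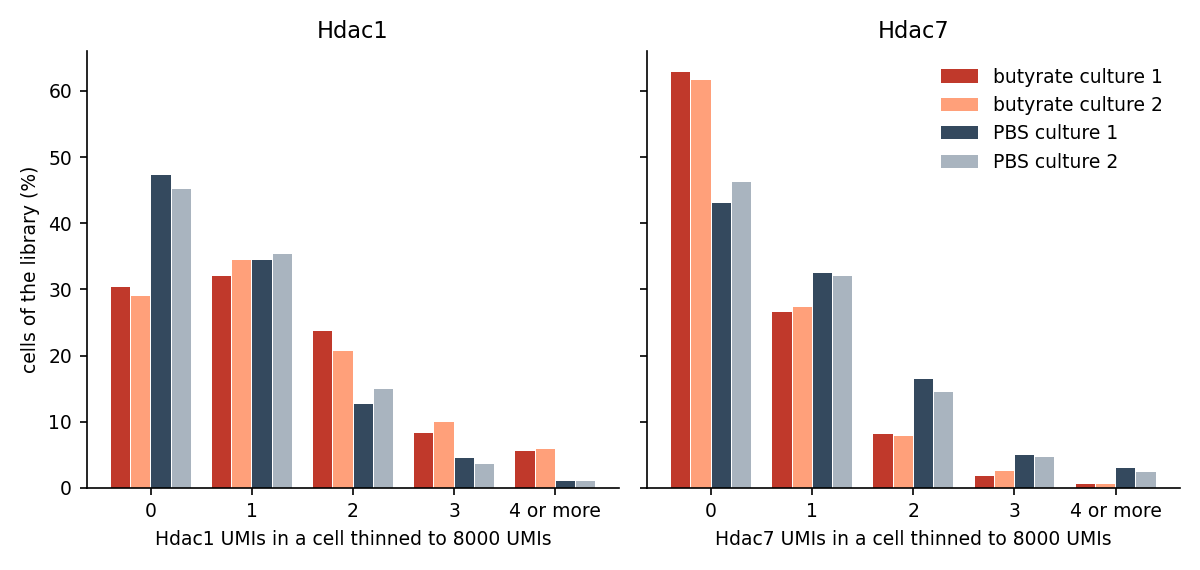
Share of cells in each library (%, from 0) by the number of Hdac1 (left) or Hdac7 (right) UMIs found after thinning each cell to 8000 UMIs, with butyrate libraries in red left of PBS libraries in grey. Cells with 2 or more Hdac1 UMIs made up more of each butyrate library, and cells with 0 Hdac7 UMIs also made up more of each butyrate library.

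The rarer members were found in fewer cells at this depth, and those lower in the summed counts were also found in fewer butyrate cells. Hdac5 was found in 7.74% and 7.24% of butyrate cells and 14.4% and 15.9% of PBS cells, and Hdac4 in 14.5% and 15.6% of butyrate cells and 21.2% and 21.2% of PBS cells. Hdac10 was found in 2.67% and 2.50% of butyrate cells and 6.19% and 6.43% of PBS cells, and Hdac8 in 2.27% and 2.08% of butyrate cells and 4.33% and 3.85% of PBS cells. Hdac3, which was higher in summed counts, was found in 26.5% and 25.9% of butyrate cells and 22.8% and 24.6% of PBS cells. Hdac2 was found in 28.1% and 26.2% of butyrate cells and in 31.8% and 31.4% of PBS cells. Hdac6 was found in 2.83% and 3.35% of butyrate cells and 5.03% and 3.81% of PBS cells.

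Hdac9 was found in 0 of 2506 cells and 1 of 2596 cells under butyrate and in 0 of 1988 and 0 of 2520 cells under PBS. A count of 0 allows a share of up to 0.12% in butyrate replicate 1, and of up to 0.151% and 0.119% in PBS replicates 1 and 2, for cells with a UMI and for counting error only. A thinned cell held 1.91 and 1.92 of the 10 genes on average in butyrate libraries and 2.15 and 2.16 in PBS libraries, with 2.76 and 2.80 family UMIs in butyrate libraries and 2.94 and 2.92 in PBS libraries. The variance of UMIs per cell divided by the mean was 1.17 and 1.13 for Hdac1 in butyrate libraries and 1.10 and 1.04 in PBS libraries, and for Hdac7 it was 1.17 and 1.23 in butyrate libraries and 1.23 and 1.22 in PBS libraries. Counting error alone gives a value of 1.

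Cells were sorted as CD8+Vα2+, and no other cell type that should lack these widely used genes was set apart. Free RNA was therefore read from barcodes with fewer than 100 UMIs. In these the ratio of butyrate to PBS levels (CPM by library totals) was 1.52 for Hdac1 and 0.53 for Hdac7, near the ratios in kept cells of 1.71 and 0.57. For Hdac5 it was 0.62, against 0.47 in cells, and for Hdac2 1.04, against 0.78 in cells.

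Within cell cycle classes, Hdac1 was about as far above its PBS level in each class, whereas the changes of Hdac2, Hdac8 and the class IIa genes differed between classes. Cells were put into G1, S and G2M classes by the larger positive score of S and G2M genes. Butyrate libraries held 437 and 501 G1 cells, 774 and 768 S cells and 1349 and 1395 G2M cells, and PBS libraries held 368 and 447 G1 cells, 374 and 536 S cells and 1317 and 1649 G2M cells. Across all kept cells, 4 of the 52 G2M score genes rose and 45 fell under butyrate. The cells called G1 differed in depth, with medians of 17502 and 16137 UMIs under butyrate and 11663.5 and 11051 UMIs under PBS. In the G1 class 97 and 88 butyrate cells lay within 0.05 of a class limit, against 18 and 21 PBS cells. Free RNA enters these scores as well, and its part in the class calls, like that of the depth gap, was not tested.

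**Figure D3:**
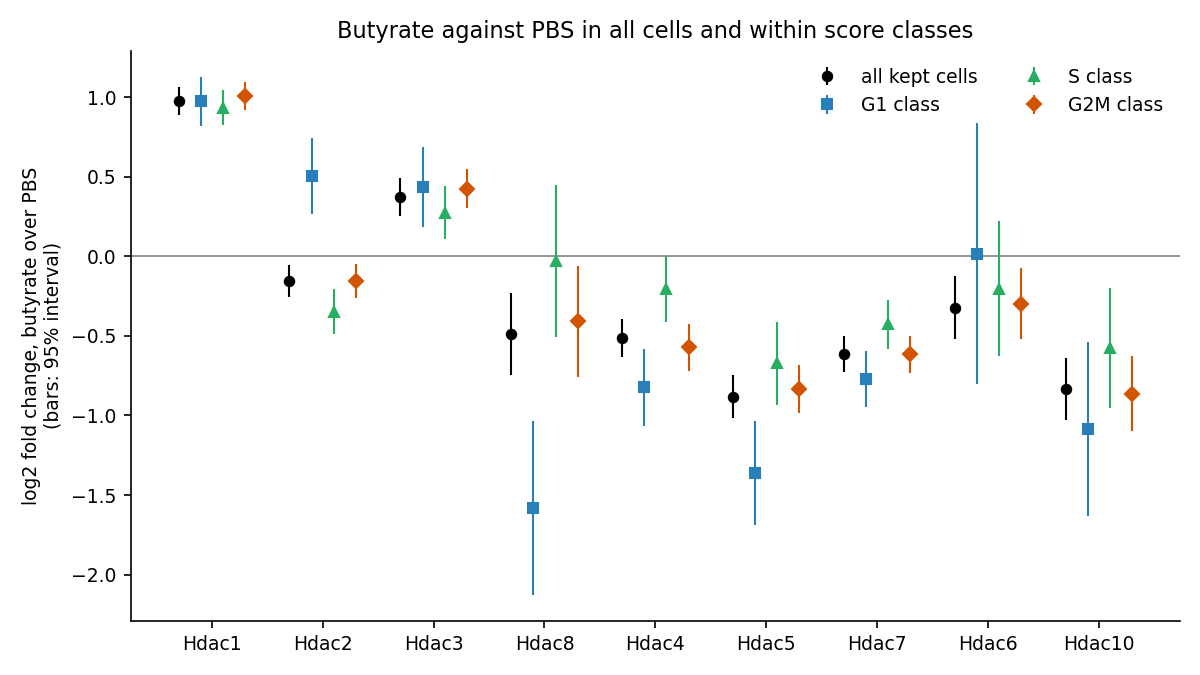
Log2 fold change (butyrate over PBS) of the 9 tested genes in all kept cells and within the G1, S and G2M score classes, with bars for the 95% interval of each edgeR estimate. Hdac1 lies between 0.93 and 1.01 in every class, Hdac2 lies above 0 in G1 and below it in S and G2M, and Hdac8 lies lowest in G1.

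Hdac1 rose in each class, with log2 fold changes of 0.97 in G1, 0.93 in S and 1.01 in G2M (edgeR adjusted p = 5.57e-14, 1.14e-13 and 1.07e-09). The difference of its effect from that in G1 was -0.02 in S (95% interval -0.17 to 0.13) and 0.08 in G2M (-0.06 to 0.21), and neither passed. In G1 cells it had 156 and 160 CPM under butyrate and 78.6 and 81.9 CPM under PBS, in S cells 180 and 181 CPM under butyrate and 93.9 and 94.8 CPM under PBS, and in G2M cells 194 and 197 CPM under butyrate and 97.9 and 96.6 CPM under PBS. Butyrate libraries stood above PBS libraries in all 3 classes.

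Hdac2 had 36.9 and 36.0 CPM in butyrate G1 cells, against 28.7 and 23.0 CPM in PBS G1 cells, a log2 fold change of 0.50 (edgeR adjusted p = 0.000384). In S cells it had 53.2 and 53.2 CPM under butyrate and 64.2 and 70.6 CPM under PBS, a log2 fold change of -0.35 (edgeR adjusted p = 0.000113). In G2M cells it had 45.0 and 46.0 CPM under butyrate and 49.7 and 51.5 CPM under PBS, a log2 fold change of -0.15 (edgeR adjusted p = 0.0131). The direction therefore differed by class, and the effect in S and in G2M lay below that in G1 by -0.83 (SE 0.12, edgeR adjusted p = 1.24e-08) and -0.62 (SE 0.12, edgeR adjusted p = 5.76e-06) on the log2 scale. The Hdac2 call in G2M was lost without butyrate replicate 1 (edgeR adjusted p = 0.0824), without PBS replicate 2 (0.0739) and with cells thinned to 8000 UMIs (-0.10, edgeR adjusted p = 0.251). With library totals alone the values were larger, at -0.59 in S and -0.35 in G2M. The rise in G1 was 0.28 when a class needed a score over 0.1 (edgeR adjusted p = 0.0167) and did not pass without PBS replicate 2 (0.34, edgeR adjusted p = 0.0669), while both differences between classes passed in each alternative run.

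Hdac8 had 2.83 and 2.48 CPM in butyrate G1 cells and 8.91 and 7.09 CPM in PBS G1 cells, from 23 and 22 UMIs under butyrate and 45 and 42 UMIs under PBS. Its log2 fold change there was -1.58 (edgeR adjusted p = 3.72e-06). In S cells the groups overlapped, with 3.12 and 3.39 CPM under butyrate and 2.82 and 3.71 CPM under PBS (log2 fold change -0.03, 95% interval -0.51 to 0.45). In G2M cells it had 3.88 and 2.71 CPM under butyrate and 4.63 and 4.15 CPM under PBS (-0.41, edgeR adjusted p = 0.037). The call in G2M was lost without butyrate replicate 2 (-0.17, edgeR adjusted p = 0.372) and without either PBS replicate (adjusted p = 0.17 and 0.0759), and with cells thinned to 8000 UMIs (-0.48, edgeR adjusted p = 0.0951), while without butyrate replicate 1 it was -0.69. The effects in S and G2M lay above that in G1 by 1.56 and 1.21 on the log2 scale (edgeR adjusted p = 0.000155 and 0.00073), and with cells thinned to 8000 UMIs these differences were 1.12 and 1.07 (adjusted p = 0.126 and 0.0698).

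**Figure D4:**
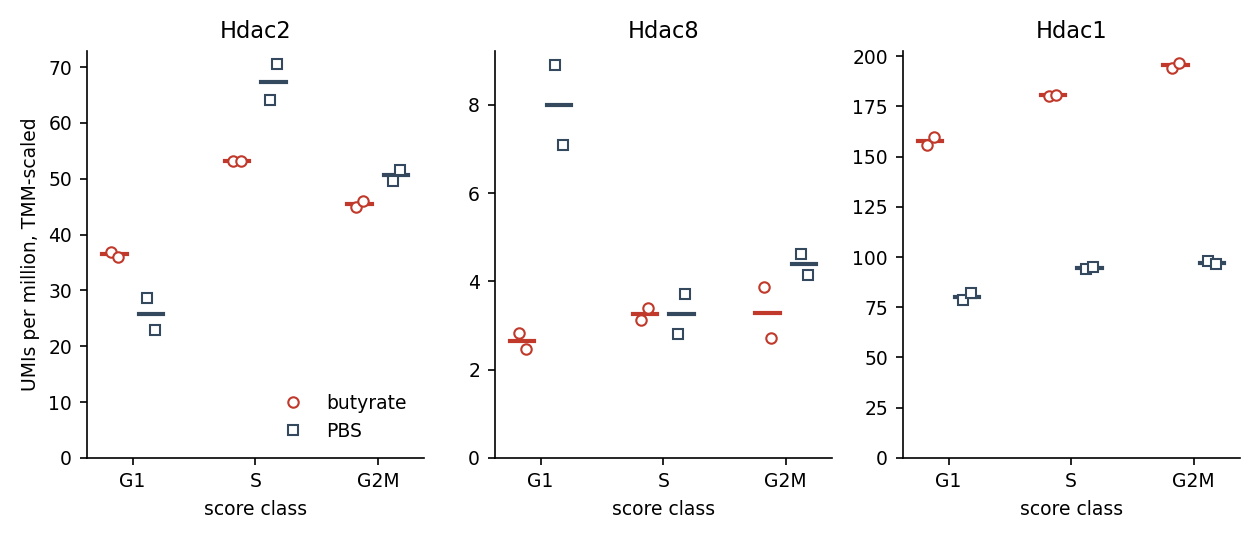
Levels in CPM of Hdac2, Hdac8 and Hdac1 in G1, S and G2M score classes of each library (axes from 0), with butyrate libraries as red circles left of PBS libraries as dark squares and bars at the group means. Hdac2 is higher under butyrate in G1 and lower in S and G2M, Hdac8 is separated most in G1, and Hdac1 is higher under butyrate in every class.

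The class IIa genes were lower under butyrate in every class, with the largest fold change in G1. Hdac4 had log2 fold changes of -0.82 in G1, -0.21 in S and -0.57 in G2M, of which that in S did not pass (edgeR adjusted p = 0.0831). Hdac5 had -1.36, -0.67 and -0.84, and Hdac7 had -0.77, -0.43 and -0.62 in the same order, all passing. The Hdac5 call in S was lost with cells thinned to 8000 UMIs (-0.33, edgeR adjusted p = 0.195). With totals alone the value in S was -0.45 for Hdac4, which then passed (edgeR adjusted p = 0.000127), and -0.67 for Hdac7. In G1 cells Hdac5 had 8.23 and 7.76 CPM under butyrate and 21.4 and 19.8 CPM under PBS. The effect in S lay above that in G1 by 0.64 for Hdac4, 0.71 for Hdac5 and 0.36 for Hdac7 (edgeR adjusted p = 0.000152, 0.00235 and 0.00105). The effect in G2M lay above that in G1 by 0.57 for Hdac5 and 0.20 for Hdac7 (edgeR adjusted p = 0.00537 and 0.0459), while that of Hdac4 was 0.29 (edgeR adjusted p = 0.0553). These differences were less stable than those of Hdac2. The difference in S lost its call for Hdac4 without PBS replicate 1 (0.45, edgeR adjusted p = 0.0532), for Hdac5 when a class needed a score over 0.1 (0.41, edgeR adjusted p = 0.0854) and for Hdac7 without PBS replicate 2 (0.26, edgeR adjusted p = 0.112), with totals alone (0.20, edgeR adjusted p = 0.0846) or with thinned cells (0.22, edgeR adjusted p = 0.191). With thinned cells the Hdac5 difference in S was 1.07, and the Hdac7 difference was 0.22 with scores over 0.1, both passing. In G2M that of Hdac5 did not pass with thinned cells (0.44, edgeR adjusted p = 0.179), with scores over 0.1 (0.33, edgeR adjusted p = 0.0732), or without butyrate replicate 2 (0.0574) or PBS replicate 1 (0.0661). That of Hdac7 did not pass in 6 of the alternatives, with values down to 0.06, and was 0.35 without butyrate replicate 2.

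Hdac3 rose in all 3 classes, by 0.44 in G1, 0.28 in S and 0.43 in G2M on the log2 scale (edgeR adjusted p = 0.00254, 0.00536 and 2.41e-05). Library totals alone gave 0.03 in S (edgeR adjusted p = 0.786) and 0.23 in G2M (edgeR adjusted p = 0.00254), and in G1 it was 0.24 with thinned cells (edgeR adjusted p = 0.278). Hdac10 fell in all 3, with log2 fold changes of -1.09 in G1, -0.57 in S and -0.86 in G2M. The Hdac10 call in G1 was lost with cells thinned to 8000 UMIs (-0.94, edgeR adjusted p = 0.0544), and that in S without butyrate replicate 1 (edgeR adjusted p = 0.0552) or PBS replicate 2 (0.061), while thinned cells gave -1.003 in S. Hdac6 passed in G2M (-0.30, edgeR adjusted p = 0.0202) and not in G1 (0.02, 95% interval -0.80 to 0.84) or S (-0.20, -0.63 to 0.22). The Hdac6 call in G2M was lost with cells thinned to 8000 UMIs (-0.20, edgeR adjusted p = 0.442) and without butyrate replicate 1, butyrate replicate 2 or PBS replicate 2 (edgeR adjusted p = 0.0865, 0.0729 and 0.0664), and totals alone gave -0.49. The Hdac3 call was lost without butyrate replicate 2 in G1 and S (0.30 and 0.22), without PBS replicate 2 in G1 (0.34) and without PBS replicate 1 in S (0.18). Neither Hdac3, Hdac6 nor Hdac10 passed the test of a difference between classes.

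In all, 3 members rose and 5 fell in G1, where 60.8% of genes were called, 30.6% higher and 30.2% lower. In S 2 rose and 4 fell (28.9% and 27.1% of genes, 55.9% in all), and in G2M 2 rose and 7 fell (34.9% and 34.5%, 69.4% in all). With totals alone, 2004 genes rose and 5489 fell in S, against 3345 and 3134 with TMM, and 3173 rose and 6158 fell in G2M, against 4478 and 4434. For the difference from G1, 39.2% of 12186 genes were called in S and 39.8% in G2M, so that the 5 and 4 members called there stand against a high background.

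The title of the series names CD127, which Il7r encodes and which marks T cells that respond to interleukin-7. CPM in this comparison were scaled to the totals of the thinned cells without TMM, so they are not on the scale of those above. Thinned cells with an Il7r UMI numbered 704 and 797 in butyrate libraries and 540 and 661 in PBS libraries, and cells without one numbered 1802 and 1799 in butyrate libraries and 1448 and 1859 in PBS libraries. Hdac4 was higher in cells with an Il7r UMI, at 25.6 and 24.3 CPM in butyrate libraries and 35.0 and 36.3 CPM in PBS libraries, against 18.0 and 20.6 CPM in butyrate libraries and 29.3 and 30.2 CPM in PBS libraries for cells without one. The log2 fold change was 0.34 (SE 0.08, edgeR adjusted p = 0.0306), with the same direction in 4 of 4 libraries. Hdac2 was lower, at 37.5 and 35.9 CPM in butyrate libraries and 37.3 and 40.3 CPM in PBS libraries, against 41.8 and 42.1 CPM in butyrate libraries and 53.8 and 52.1 CPM in PBS libraries for cells without an Il7r UMI (log2 fold change -0.30, SE 0.08, edgeR adjusted p = 0.0345). Of 11430 genes tested, 5.89% were called higher and 5.35% lower, against 1 and 1 of the 9 tested members.

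Both Il7r calls were weak. With cells thinned to 4000 UMIs Hdac4 was 0.16 (edgeR adjusted p = 0.484) and Hdac2 was -0.20 (edgeR adjusted p = 0.271). Without PBS replicate 1 or PBS replicate 2 neither passed (adjusted p = 0.134 and 0.135 for Hdac4, 0.224 and 0.166 for Hdac2), and Hdac4 also did not pass without butyrate replicate 1 (0.0841) or when a cell needed at least 2 Il7r UMIs (0.35, edgeR adjusted p = 0.0908). Hdac1 had a log2 fold change of -0.04 between these cells (95% interval -0.17 to 0.09).

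Of the complexes that carry Hdac1 and Hdac2, more genes fell than rose in NuRD, CoREST and SIN3, while 2 rose and 1 fell in MiDAC, and 36% of all genes were called higher and 35.7% lower. Of 13 NuRD genes 2 rose and 8 fell (median log2 fold change -0.24). The fall was largest for Chd3, a chromatin remodelling subunit, with 19.8 ± 0.303 CPM under butyrate and 61.4 ± 0.496 CPM under PBS (SD, n = 2), a log2 fold change of -1.63 (edgeR adjusted p = 7.4e-13). Mbd3 (-0.69), a methyl-binding domain subunit, Cdk2ap1 (-0.50) and Mta2 (-0.41) also fell. Of 10 CoREST genes 2 rose and 7 fell (median -0.38). Rcor2, a CoREST scaffold, had 6.13 ± 0.584 CPM under butyrate and 1.64 ± 0.22 CPM under PBS, a log2 fold change of 1.91 (edgeR adjusted p = 3.44e-09), while its relative Rcor3 (-0.81) and the subunits Phf21a (-0.71) and Zmym2 (-0.66) fell.

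Of 16 SIN3 genes 6 rose and 9 fell (median -0.28), and with library totals alone 1 rose and 10 fell. Totals alone gave 25.2% of all genes higher and 49.8% lower. The readers of histone methylation Ing1 (-0.79) and Ing2 (-0.74), the subunit Arid4a (-0.80) and the scaffold-binding Sap30 (-0.83) fell. Sap30 had 30.4 ± 1.95 CPM under butyrate and 54.0 ± 3.43 CPM under PBS. In the MiDAC complex Trerf1 (0.90) and Dnttip1 (0.15) rose and Elmsan1 (-0.32) fell, and Dnttip1 had -0.05 with totals alone (edgeR adjusted p = 0.404), so its direction depends on the scaling. With library totals alone the median of the 3 MiDAC genes was -0.05, against 0.15.

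Of 4 listed genes of the NCoR complex, in which Hdac3 acts, 2 rose and 2 fell (median log2 fold change -0.01), and with totals alone 1 rose and 2 fell (median -0.21). Among all genes 36% rose and 35.7% fell, and with totals alone 25.2% rose and 49.8% fell. The scaffold gene Ncor1 had 101 ± 1.39 CPM in butyrate libraries and 171 ± 0.345 CPM in PBS libraries, a log2 fold change of -0.76 (edgeR adjusted p = 3.6e-10). Tbl1xr1 rose by 0.36, and its relative Tbl1x fell (-0.17). Gps2, a further subunit, rose by 0.15 (edgeR adjusted p = 0.0234), but had -0.05 with totals alone (edgeR adjusted p = 0.453), so its direction depends on the scaling.

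**Figure D5:**
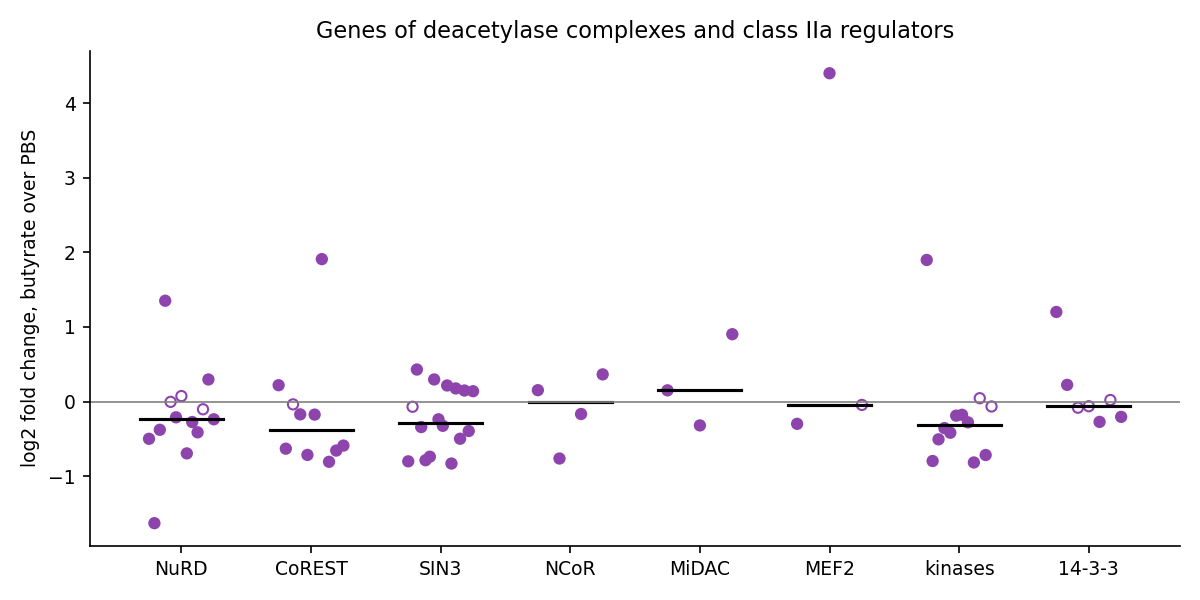
Log2 fold change (butyrate over PBS, all kept cells) of every tested gene of 5 deacetylase complexes and of the MEF2 factors, kinases and 14-3-3 proteins that act with class IIa enzymes, with filled points for an adjusted p under 0.05 and bars at each list's median. The median of every list but MiDAC lies below 0, with NCoR (-0.01), MEF2 (-0.04) and 14-3-3 (-0.06) nearest to it. Mef2b, Rcor2 and Camk1 stand highest, and Mef2b had very few PBS UMIs.

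The kinases that drive class IIa proteins out of the nucleus also fell for the most part, with 1 of 12 higher and 9 lower (median -0.32). Over all genes 36% were called higher and 35.7% lower, and with totals alone 25.2% and 49.8%. Prkd3, a protein kinase D gene, had 13.5 ± 1.07 CPM under butyrate and 23.7 ± 0.35 CPM under PBS, a log2 fold change of -0.82 (edgeR adjusted p = 1.7e-08). The calmodulin-dependent kinase genes Camk1d (-0.80) and Camk4 (-0.42) fell, whereas the low-level Camk1 rose by 1.90 to 2.15 ± 0.146 CPM, against 0.576 ± 0.0157 CPM under PBS. Of the 3 tested MEF2 genes, Mef2a fell (-0.30) and Mef2d did not pass (-0.04, edgeR adjusted p = 0.468, and -0.24 with totals alone, adjusted p = 0.000595). Mef2b rose by 4.40 (SE 0.53) to a level of 0.561 ± 0.156 CPM, against 0.0258 ± 0.0154 CPM under PBS. Its PBS values of 0.0367 and 0.0149 CPM lay below 0.0551 CPM, the most that 3 UMIs make in any library. The size of this rise therefore rests on very few PBS UMIs. Of 7 genes of 14-3-3 proteins, Sfn (1.20) and Ywhab (0.22) rose and Ywhah (-0.27) and Ywhaz (-0.20) fell. With totals alone 1 rose and 5 fell, where 25.2% of all genes rose and 49.8% fell. Ywhab had 0.02 with totals alone (edgeR adjusted p = 0.628), so its call depends on the scaling.

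The genes whose levels followed Hdac1 most closely over the 12 sums of a library and a class were Cox19 (Pearson r = 0.9921), Mrpl43 (0.9919) and Aurkaip1 (0.9919), among the 4773 genes that averaged 20 CPM or more. The 12 sums share 4 libraries and the treatment, so this is a description of likeness and no test.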

How the data were processed

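UMI counts per gene and droplet barcode were deposited with no cell filter. Cell Ranger 4, Seurat 4.3 and mm10 stand in the submitters' processing notes. The annotation release and any use of intronic reads were not given in the sources used here. Coordinates are from GENCODE M21 (GRCm38), in which 32235 of the 32285 gene IDs were found. Cells were barcodes with at least 10% of the 99th percentile of the top 3000 barcodes' UMIs, at least 500 genes and under 10% mitochondrial UMIs, a limit that removed 63 and 92 butyrate barcodes and 217 and 295 PBS barcodes. No doublet caller was used, and an alternative left out the 5% of cells with the most UMIs. No other gene's transcript matched a member's last 500 bases over 90 bases at 90% identity (blastn 2.17.0).

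Counts were summed per library and tested in edgeR 4.0.16 (R 4.3.3) with TMM scaling, the filterByExpr filter and a robust quasi-likelihood F test for group alone. TMM factors were 0.932 and 0.934 for butyrate and 1.07 and 1.08 for PBS. DESeq2 1.42.0 was an alternative. The fits were checked on simulated counts. Differences between classes and Il7r groups were tested with library as a term. Phase scores came from scanpy 1.11.5. Thinning to 8000 UMIs left out 54 and 68 butyrate cells and 71 and 112 PBS cells. Binomial intervals and floors cover counting error only, and edgeR intervals include the estimated spread between libraries. Spread was pooled over genes for the p-values, which do not carry over to other mice.

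Cultures with the same number came from the same mouse, per the labels' library names, and their deviations correlated by 0.132 across genes (Spearman 0.063). The fit with the replicate as a block was an alternative, with a common coefficient of variation of 0.0336 against 0.0405 without it.

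All 10 members and Hdac11 were named, with up to 4 genes of smallest p per partner list and the 3 genes most like Hdac1. The members and lists were chosen with earlier results of these data known. A further partner gene and a marker gene are not reported here.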

Additional observations from a re-analysis of the deposited data

Results flagged for a closer look

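For 5 of the 9 tested genes the effect of butyrate differed between cell cycle score classes by a test of the difference itself (edgeR interaction term, adjusted p under 0.05), where 39.2% of genes were called for S against G1 and 39.8% for G2M against G1. Differences are in log2 fold change, butyrate over PBS. For Hdac2 the effect differed by -0.83 in S minus G1 and by -0.62 in G2M minus G1. For Hdac8 it differed by 1.56 in S minus G1 and by 1.21 in G2M minus G1. Hdac4 differed by 0.64 in S minus G1. Hdac5 differed by 0.71 in S minus G1 and by 0.57 in G2M minus G1. Hdac7 differed by 0.36 in S minus G1 and by 0.20 in G2M minus G1. The G1 cells of butyrate libraries had higher median depth than those of PBS libraries (17502 and 16137 UMIs against 11663.5 and 11051 UMIs), and the part of depth in these differences was not tested beyond thinning every cell to 8000 UMIs. With thinned cells both Hdac8 differences lost their calls (edgeR adjusted p = 0.126 in S and 0.0698 in G2M). So did that of Hdac5 in G2M (0.179) and those of Hdac7 in S (0.191) and G2M. Both Hdac2 differences and those of Hdac4 and Hdac5 in S kept their calls.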

How the results depend on the processing

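Of the counts and shares, 239 values under an alternative stayed within 1.5 times or kept their direction and 30 moved. Of the values of single genes, 550 counted as unchanged, 53 lost the call, 4 gained it and 14 changed sign. A fold change counted as unchanged if it kept direction and side of the threshold. Shares of cells or of family UMIs were judged on direction alone. With the replicate as a block 2 members were higher and 7 lower across all kept cells, and no member call changed within a class. With cells thinned to 8000 UMIs and totals alone 2636 genes were higher across all kept cells. In S, library totals alone gave 2004 genes and 1 member higher and 5489 genes lower, and thinned cells gave 1973 genes lower. Thinned cells gave 4 members lower in G2M, 1680 genes and 2 members higher for S minus G1, and 1718 genes higher, 1443 genes lower and 0 members higher for G2M minus G1. Scores over 0.1 gave 1 member higher for G2M minus G1, and totals alone gave 2 members lower for S minus G1. Leaving out each replicate gave 1 to 3 members higher in G1, 1 to 2 higher in S, 4 to 6 lower in G2M, and for Il7r 82 to 747 genes higher, 8 to 709 lower, 0 to 1 members higher and 0 to 1 lower. At least 2 Il7r UMIs gave 934 genes lower and 0 members higher, and thinning to 4000 UMIs gave 0 members higher and 0 lower. Values that did not pass changed sign as follows. Hdac6 in G1 was -0.052 with scores over 0.1, -0.11 without cells near the class limits, -0.087 with totals alone and -0.30 to 0.41 without each replicate. Hdac8 in S was 0.027 with scores over 0.1, 0.093 without cells near the limits and -0.20 to 0.20 without each replicate, and Hdac6 in S was -0.45 to 0.011. Hdac1 for G2M minus G1 was -0.011 with scores over 0.1 and -0.056 with totals alone. For Il7r, thinning to 4000 UMIs gave 0.025 for Hdac6 and 0.39 for Hdac10. The cause was not tested. A library left alone in its group is assumed to vary like the other group. The settings on class limits, thinning and totals within classes were chosen after seeing the data. At 0 to 2 UMIs per library Hdac9 could not be tested.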
